A study of Bos taurus with 129 samples.

Results

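The genes described here are 10 heat shock chaperones, taken by symbol from the deposited table of gene counts. They are HSPD1, HSPE1, HSPA9 and TRAP1, whose proteins work in the mitochondrion, and HSP90AA1, HSP90AB1, HSPA8, HSPH1, HSPA4 and DNAJB1, whose proteins work mainly in the cytosol. All 10 were found among the 32395 genes of the table, and all 10 passed the filter on low counts, as did 18937 genes in all. They were chosen with their levels by day, disease label and supplement already known, so their own differences are given below as descriptions with standard errors. The 1 count of them at a false discovery rate is printed beside the share of all genes, and nothing is read from it.

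The libraries came from whole blood of 26 crossbred stocker steers, which are newly weaned beef cattle bought from an order buyer and trucked to 1 site. Blood was drawn 5 times, at day 0 (pen enrolment) and then at days 13, 28, 45 and 60. The study asked how the form of a trace mineral supplement, and the development of bovine respiratory disease (BRD), relate to blood gene expression. Each steer gave a library at each sampling, except that the day 13 library of 1 steer (animal 48) was lost. The 11 INR steers received sulfate forms of copper, cobalt, manganese and zinc, the 8 AAC steers received those minerals complexed with amino acids, and the 7 COMBO steers received the complexed minerals together with an oral mineral drench. The label in the deposited records was BRD for 14 steers and no disease (healthy) for 12. The paper describes its healthy cattle as those neither diagnosed with nor treated for BRD in the 60 days. The label thus covers the whole study and does not tell which steers were ill at a given sampling. COMBO steers were also to be drenched with any treatment for illness, so treatment could differ between labels. Healthy cattle comprised 4 AAC, 4 COMBO and 4 INR steers, and BRD cattle comprised 4 AAC, 3 COMBO and 7 INR steers. All steers were vaccinated and dewormed at day 0 and vaccinated again between day 13 and day 28, so no group lacked these treatments. The steers were penned by supplement in 7 pens at enrolment, and all COMBO steers with BRD came from pen 6 while all healthy COMBO steers came from pen 5. Supplement was given by pen, so the supplement contrasts are also contrasts of pens. In the COMBO group the label and the pen cannot be told apart. Across the study the sampling day and the order in which libraries were numbered cannot be told apart.

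Heat shock chaperones bind unfolded or partly folded proteins and use ATP to help them reach or regain their shape. HSP70 proteins such as HSPA8 take up clients with the help of J-domain proteins such as DNAJB1 and release them with the help of exchange factors such as HSPH1 and HSPA4, and HSP90 proteins finish the folding of kinases and steroid receptors. In the mitochondrion, HSPA9 draws proteins through the inner membrane, HSPD1 and its lid HSPE1 fold them in a closed chamber, and TRAP1 is the HSP90 of that compartment. In many animal cells heat and other stresses that unfold protein release heat shock factor 1, which switches on cytosolic chaperone genes, and blood leukocytes of cattle are often used to follow that response.

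Library totals ranged from 31613545 to 61692136 counts with a median of 44268685, and the counts of the 10 genes ranged from 1156 to 186045 per library, so counting error was small beside the spread between animals. Levels are given in CPM, which are counts divided by the TMM-scaled library size, and are compared between libraries but not between genes. Whole blood was checked against markers of 8 blood cell types. Markers of T cells, B cells, monocytes, neutrophils and platelets were present in each library (lowest summed levels 746, 869, 966, 995 and 441 CPM), whereas the summed erythroid level ranged from 32.97 to 82130 CPM over all libraries. In such bulk samples more cells of a type and more RNA per cell cannot be told apart.

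Among the mitochondrial chaperones, HSPD1 and HSPE1 were highest at day 45. HSPD1, the chamber-forming chaperonin, had a median of 119.2 CPM at day 28 (range 93.03 to 159, n = 26) and of 129.8 CPM at day 45 (112.1 to 248, n = 26), against 116.8 CPM at day 0 (87.4 to 162, n = 26), 121.6 CPM at day 13 (89.5 to 161, n = 25) and 127.7 CPM at day 60 (101.4 to 181, n = 26). The ranges of all 5 days overlapped, and the lowest animal at day 45 stood above the lowest animal of each other day. HSPE1, the lid of that chamber, had medians of 45.9, 43.2, 42.1, 47.4 and 41.4 CPM at days 0, 13, 28, 45 and 60, with single libraries between 27.6 and 88.6 CPM. In the RefSeq annotation of the cattle genome HSPD1 and HSPE1 are direct neighbours with no gene between them, and their levels correlated over all libraries with r = 0.762.

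HSPA9, the HSP70 protein of the mitochondrial matrix, differed least between days 28 and 45. Its medians were 206, 195, 207, 223 and 207 CPM at the 5 successive samplings, and its full range over all libraries was 146 to 282 CPM. Only TRAP1 had a narrower range in proportion to its lowest value, at 37.8 to 71.6 CPM. TRAP1 also ran the other way. Its median was 47.9 CPM at day 0, 54.2 CPM at day 13, 53.5 CPM at day 28, 47.4 CPM at day 45, and at day 60 it lay between 40.03 and 69.7 CPM. The day with the highest median for the other 9 genes had the lowest median for TRAP1, and the ranges of all days overlapped.

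The cytosolic HSP90 genes showed a clearer step at day 45. HSP90AA1, the stress-responsive form, lay between 486 and 740 CPM at day 28 with a median of 543 CPM, and between 569 and 2793 CPM at day 45 with a median of 763 CPM (n = 26 at each day). At days 0, 13 and 60 its medians were 590, 581 and 676 CPM. HSP90AB1, the form that most cells make at all times, had medians of 807, 729.5, 717, 944 and 849 CPM over the 5 days. Its highest values were 2662 CPM in animal 18 at day 45 and 2221 CPM in animal 54 at day 0, both BRD steers of the COMBO group. The day 28 and day 45 ranges of both genes overlapped, and the day 45 range reached far higher.

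HSPH1, an HSP110 protein that resets HSP70, had the widest range of the 10 genes in proportion to its lowest value, whereas in CPM the ranges of HSPA8, HSP90AA1 and HSP90AB1 were wider. It lay between 45.3 and 98.5 CPM at day 28 with a median of 59.21 CPM, and between 49.8 and 843 CPM at day 45 with a median of 100 CPM. Its medians at days 0, 13 and 60 were 64.5, 62.6 and 90.4 CPM, so the typical animal was also higher at day 60 than at day 28. DNAJB1, the J-domain partner of stress-responsive HSP70, followed the same course, with medians of 68.9, 61.3, 60.6, 91.2 and 83.3 CPM and a single highest value of 519.9 CPM at day 45.

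HSPA8 is the HSP70 protein that cells make without stress. Its medians were 964, 947, 832, 1348 and 1148 CPM over the 5 days, and at day 60 single libraries still ranged from 359 to 3083 CPM. HSPA4, another HSP110 protein, had medians of 131.9, 127.4, 128.7, 157 and 145.3 CPM. At day 45 its levels ran from 126.2 to 329 CPM, and the highest level at day 28 was 156 CPM, so the days overlapped.

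**Figure D1:**
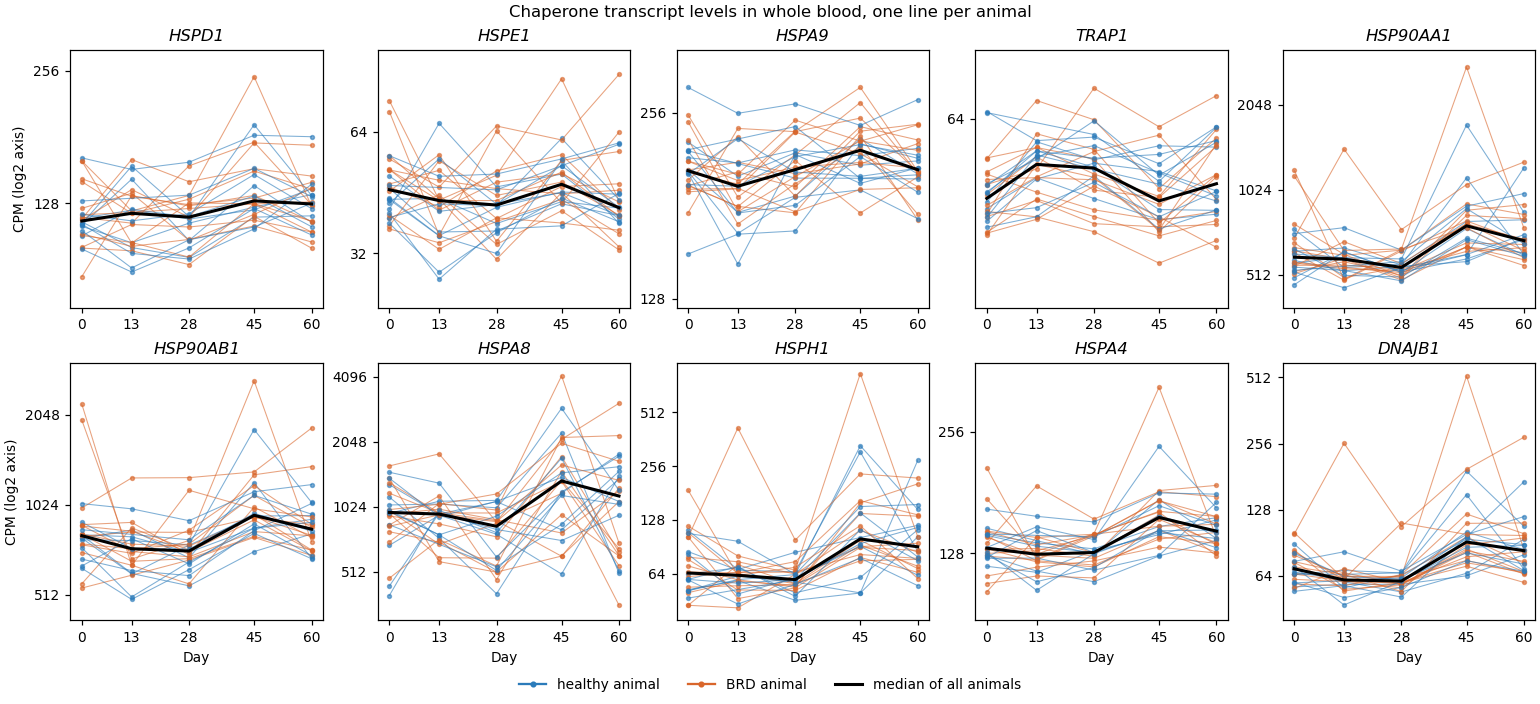
Level of each of the 10 chaperone genes (CPM, log2 axis) against sampling day, with a line for each of the 26 animals (blue for healthy, orange for BRD) and the median of all animals in black. The medians of 9 genes peak at day 45 while the TRAP1 median dips there, and HSPH1 spreads from 49.8 to 843 CPM at that day.

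The step from day 28 to day 45 was estimated with the animal as a block, so that each steer was compared with itself. The log2 fold change was 1.11 ± 0.15 (SE) for HSPH1, 0.86 ± 0.15 for HSPA8, 0.75 ± 0.10 for DNAJB1, 0.60 ± 0.07 for HSP90AA1, 0.51 ± 0.07 for HSP90AB1 and 0.32 ± 0.04 for HSPA4. Among the mitochondrial genes it was 0.25 ± 0.05 for HSPD1, 0.21 ± 0.07 for HSPE1, 0.09 ± 0.04 for HSPA9 and -0.15 ± 0.03 for TRAP1. In linear terms HSPH1 was 2.16-fold higher at day 45 and HSPD1 was 1.19-fold higher, while the TRAP1 level was 0.899 of that at day 28. The estimate of each cytosolic gene lay above that of each mitochondrial gene. The 95% intervals of HSPA4 (0.24 to 0.41) and HSPD1 (0.16 to 0.35) overlapped, and the difference between the compartments was not tested. At a false discovery rate (FDR) below 0.10 over all genes, 8 of the 10 were called higher and 1 was called lower. Of all genes tested, 13.1% were called higher and 14% were called lower at this step. The genes were chosen partly on this contrast, and nothing is read from their count.

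**Figure D2:**
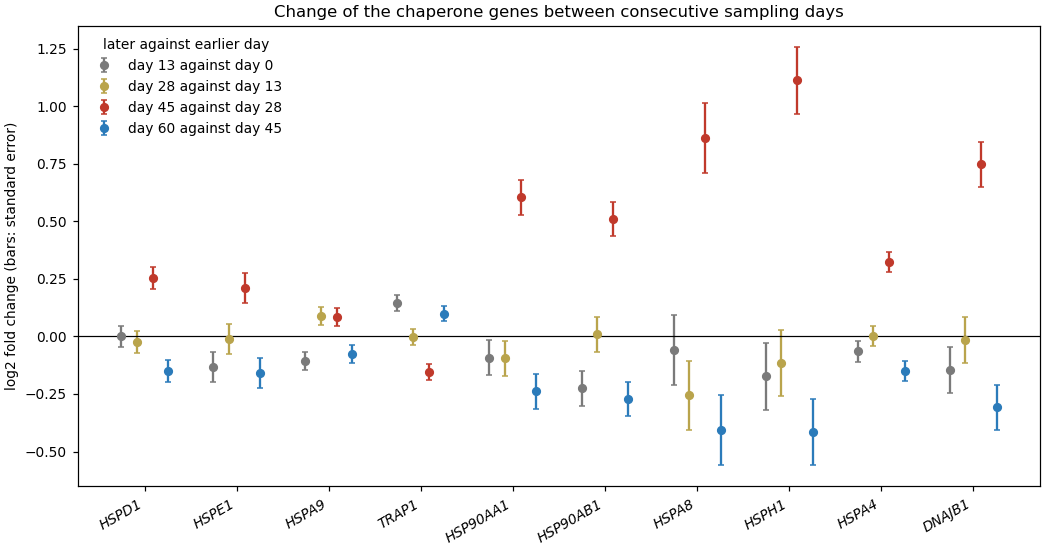
log2 fold change of each chaperone gene between consecutive sampling days, later against earlier (points), with its standard error (bars), from the fit with the animal as a block. The day 45 against day 28 values run from -0.15 for TRAP1 to 1.11 for HSPH1, and the day 60 against day 45 values have the opposite sign for all 10 genes.

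Within single animals the day 45 step was widely shared. HSP90AA1 and HSPA4 were higher at day 45 than at day 28 in 26 of 26 animals, and HSPD1, HSP90AB1, HSPH1 and DNAJB1 were higher in 25 of 26. HSPE1 was higher in 22, HSPA8 in 21, HSPA9 in 16 and TRAP1 in 3 of 26 animals. Of all genes tested, 0.586% were higher in at least 25 of the 26 animals, and 2.79% were lower in at least 23 of them. The chaperones were chosen with their levels by day known, and the cut of 23 equals the number of animals with lower TRAP1. Nothing is therefore read from the counts of the chaperones beside these shares.

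The exceptions lay in few steers for most genes, but HSPA9 was lower at day 45 in 10 animals and HSPE1 in 4. Animal 54, a BRD steer of the COMBO group, was the exception for HSPD1, HSP90AB1 and DNAJB1, and its HSPE1 level differed by -0.59 on the log2 scale. Animal 30, a healthy INR steer, was the exception for HSPH1, at -0.20. HSPA8 was lower at day 45 in animals 6, 7, 9, 27 and 30, by up to -0.61 in animal 7. The mean log2 change over the 10 genes was above 0 in each of the 26 animals, and at least 8 of the 10 genes were higher in 22 animals.

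The size of the change varied more than its direction. The per-animal log2 change in HSPH1 ran from -0.20 to 3.65 with a median of 0.76, and that in DNAJB1 ran from -0.17 to 3.02 with a median of 0.53. The change in HSPA4 ran from 0.07 to 1.20 with a median of 0.23. Healthy and BRD steers had similar median changes in HSP90AA1 (0.49 in 12 healthy and 0.43 in 14 BRD steers) and in HSPA4 (0.22 and 0.24). For HSPA9 the median change was -0.01 in healthy and 0.16 in BRD steers, with 5 of 12 and 11 of 14 steers higher, and that difference was not tested.

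**Figure D3:**
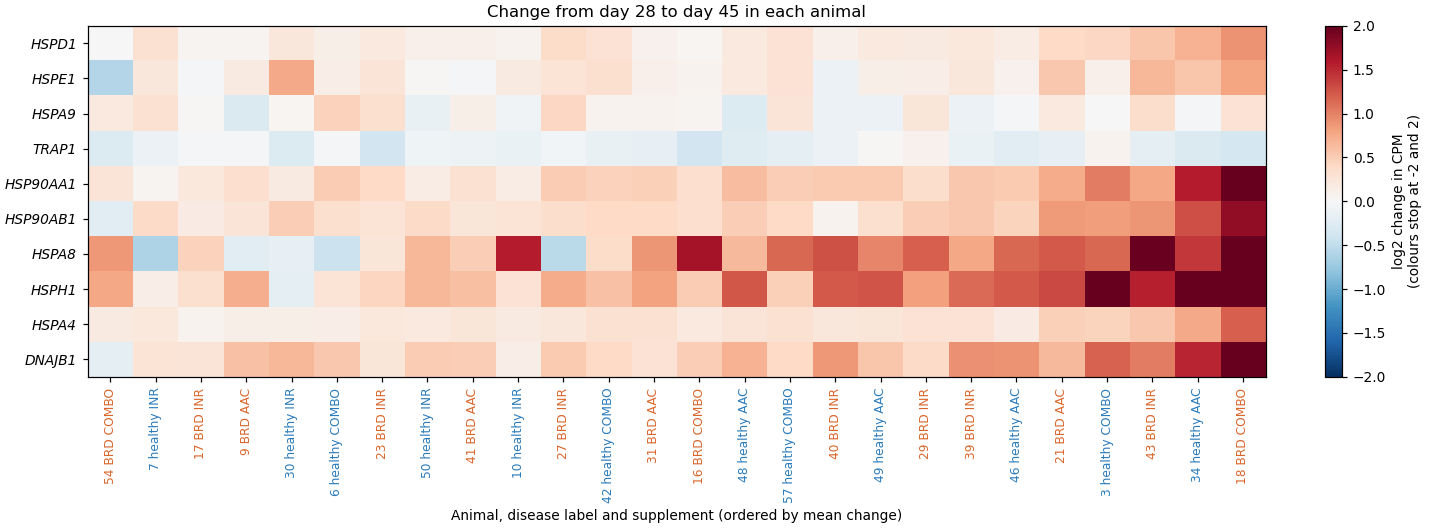
log2 change in CPM from day 28 to day 45 for the 10 chaperone genes (rows) in each of 26 animals (columns, ordered by the mean change over the genes, labels in blue for healthy and orange for BRD). Red marks a higher and blue a lower level at day 45, the strongest column is animal 18 with a mean change of 1.545, and the TRAP1 row is blue in 23 animals.

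The largest values came from a few libraries. Animal 18, a BRD steer of the COMBO group, held the highest day 45 level of 8 of the 10 genes, with 2793 CPM of HSP90AA1, 4132 CPM of HSPA8 and 519.9 CPM of DNAJB1. Its own day 28 levels of these genes were 631, 989 and 63.5 CPM, and its own day 60 levels were 748, 696 and 84.3 CPM. The library thus stood apart from the earlier and the later sample of the same steer. Next came animal 34, a healthy AAC steer, at day 45, and animal 40, a BRD INR steer, at days 60, 13 and 45. HSPH1 in animal 40 was 101.9 CPM at day 0, 418 CPM at day 13, 98.5 CPM at day 28, 231 CPM at day 45 and 219 CPM at day 60. The day 60 library of animal 40 had the lowest RNA integrity of the study, and the part of RNA quality in its levels was not tested.

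The day 45 differences were smaller without the animals that held these libraries. Without animals 18, 34 and 40, which were left out after their levels had been seen, the log2 fold change at day 45 was 0.86 for HSPH1, 0.74 for HSPA8, 0.54 for DNAJB1, 0.46 for HSP90AA1, 0.41 for HSP90AB1 and 0.25 for HSPA4. It was 0.20 for HSPD1, 0.17 for HSPE1, 0.09 for HSPA9 and -0.14 for TRAP1. The order of the genes changed little and no sign turned. With only 1 animal left out at a time, the lowest day 45 values of HSPH1 (0.93) and DNAJB1 (0.58) were those without animal 18.

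The earlier steps were small by comparison. Between day 0 and day 13 the log2 fold change was 0.15 ± 0.03 for TRAP1, -0.11 ± 0.04 for HSPA9 and -0.22 ± 0.08 for HSP90AB1, and the other 7 genes lay between -0.17 and 0.00. TRAP1 was higher at day 13 in 22 of 25 animals, while HSP90AB1 was lower in 18 of 25. Without animal 54 the HSP90AB1 value was -0.16. Between day 13 and day 28 the log2 fold changes ran from -0.26 ± 0.15 for HSPA8 to 0.09 ± 0.04 for HSPA9.

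Between day 45 and day 60 the mean levels of 9 chaperones were lower and that of TRAP1 was higher, but animals differed in direction. This comparison shares the day 45 libraries with the one before it, so the signs of the pair are not independent. The log2 fold change was -0.42 ± 0.14 for HSPH1, -0.41 ± 0.15 for HSPA8, -0.31 ± 0.10 for DNAJB1, -0.27 ± 0.07 for HSP90AB1 and -0.24 ± 0.07 for HSP90AA1. It was -0.16 ± 0.07 for HSPE1, -0.15 ± 0.05 for HSPD1, -0.15 ± 0.04 for HSPA4, -0.08 ± 0.04 for HSPA9 and 0.10 ± 0.03 for TRAP1. HSP90AB1, HSPD1, HSPE1 and HSPA4 were lower at day 60 in 18 of 26 animals each, HSP90AA1, HSPH1 and DNAJB1 in 17 each, HSPA9 in 15 and HSPA8 in 14, while TRAP1 was higher in 19. In healthy steers HSP90AA1, HSP90AB1 and HSPH1 were higher at day 60 in 6 of 12 each, and HSPA8 was higher in 7 of 12 with a median log2 change of 0.24. In BRD steers these genes were higher in 3, 2, 3 and 5 of 14, with a median log2 change of -0.455 for HSPA8, and the difference between labels was not tested. In the 4 healthy INR steers the HSPA8 median was 957 CPM at day 45 and 1493 CPM at day 60, and HSPH1 ran from 49.8 to 94.2 CPM at day 45 and from 102.8 to 275.0 CPM at day 60. Without animal 18 the log2 fold changes over all steers were -0.26 for HSPH1, -0.15 for DNAJB1 and -0.14 for HSP90AA1.

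Day 60 was also set against day 28, the day of lowest median for HSP90AA1, HSP90AB1, HSPA8, HSPH1 and DNAJB1. HSP90AA1 and DNAJB1 were higher at day 60 than at day 28 in 25 of 26 animals each, HSPH1 and HSPA4 in 24, HSP90AB1 in 23 and HSPA8 in 19. HSPD1 was higher in 18, HSPE1 and HSPA9 in 13 each and TRAP1 in 8 of 26 animals. The share of all genes higher in as many animals was not worked out for these days, so nothing is read from these counts. The median log2 change from day 28 to day 60 was 0.60 for HSPH1, 0.42 for DNAJB1 and 0.30 for HSP90AA1, against 0.11 for HSPD1 and 0.02 for HSPE1.

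Genes that work with these chaperones were tested as 79 related genes in 5 lists, of which 78 passed the filter. The lists were chosen with earlier results of these data known, so the shares called are not independent of those results. From day 28 to day 45, edgeR's quasi-likelihood test called 40 of the 78 at an FDR below 0.10, 36 of them higher and 4 lower, against 27.1% of all genes tested. All 8 tested subunits of TRiC, the cytosolic chaperonin that folds actin and tubulin, rose. Of the HSP90 co-chaperones 9 of 14 rose, and of the HSP70 cycle partners 13 of 25 rose and 1 fell. Among genes of mitochondrial protein import, folding and proteolysis, 1 of 18 rose and 1 fell. Among heat shock factors, small heat shock proteins and stress regulators, 5 of 13 rose and 2 fell. The median log2 fold change was 0.19 for TRiC, 0.16 for the HSP90 co-chaperones, 0.11 for the HSP70 partners, 0.08 for the factors and small heat shock proteins and 0.01 for the mitochondrial list, against -0.000676 over all genes.

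DNAJA1, a J-domain partner of HSPA8, rose by a log2 fold change of 0.76 ± 0.09 (edgeR FDR = 9.36e-10) and was higher in 26 of 26 animals. FKBP4 and STIP1, which bind HSP90, rose by 0.69 ± 0.08 (edgeR FDR = 1.44e-09) and 0.63 ± 0.08 (edgeR FDR = 1.22e-09). The TRiC subunits CCT4 and CCT3 rose by 0.30 ± 0.04 and 0.27 ± 0.05, and the small heat shock protein HSPB1 rose by 0.56 ± 0.08. On the mitochondrial side DNAJA3, a J-domain partner of HSPA9, rose by 0.10 ± 0.04 (edgeR FDR = 0.0485), a call lost without animal 18 or without animal 30. DNAJC19, a part of the import motor, fell by 0.14 ± 0.05 on the log2 scale (edgeR FDR = 0.0238), a call lost without animals 18, 34 and 40. Thus 2 of 18 mitochondrial genes passed the test, and neither call held in every alternative.

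The stress-inducible HSP70 genes HSPA6 and HSPA1A are named here after their values were seen. HSPA6 rose by a log2 fold change of 2.598 ± 0.40 and HSPA1A by 1.32 ± 0.20 at day 45. HSPA1A has near-identical copies, so its share of reads is uncertain. The highest levels of both were again in the day 45 library of animal 18, at 336 CPM of HSPA6 against a median of 0.936 CPM over all libraries and at 4436 CPM of HSPA1A against a median of 128.6 CPM. The next highest library, that of animal 40 at day 13, had 72.12 CPM of HSPA6 and 1777 CPM of HSPA1A. No fold change without animal 18 is given for these genes, so the part of that library in their rises is not known.

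**Figure D4:**
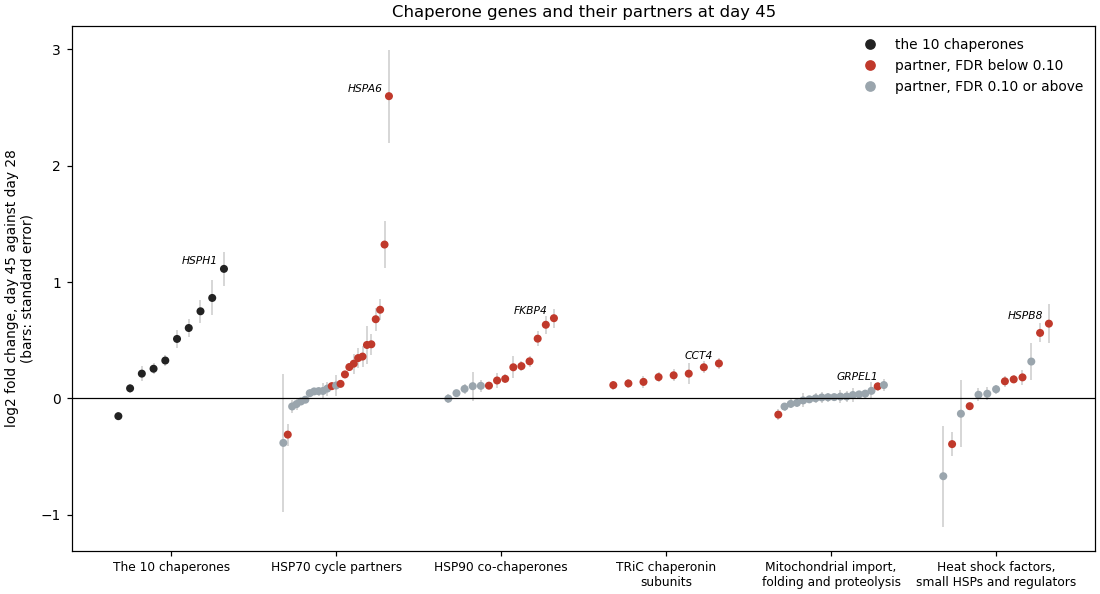
log2 fold change at day 45 against day 28 for the 10 chaperones and for the related genes of the 5 lists, each point a gene with its standard error (bars), red where the FDR was below 0.10 and grey where it was not, black for the 10 chaperones, with the top gene of each list named. The TRiC points all lie above 0, from 0.11 to 0.30, while the mitochondrial points centre on 0.01.

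The related genes were also tested at the other steps. From day 0 to day 13, 25 of 78 were called, 5 higher and 20 lower, against 31.7% of all genes (16.6% higher and 15.1% lower). FKBP5, an HSP90 co-chaperone that glucocorticoids switch on, fell by 0.88 ± 0.13 on the log2 scale (edgeR FDR = 1.48e-07), and HSPB1 fell by 0.36 ± 0.08. At that step 7 of 8 erythroid markers (list median log2 fold change 2.105) and 7 of 8 platelet markers (0.48) were called higher. Of 9 neutrophil markers 5 were called lower and 1 higher. Of 8 monocyte markers 4 were lower and 1 higher, and of 7 natural killer cell markers 4 were lower and 1 higher. Of 8 B cell markers 3 were higher, of 10 T cell markers 1 was higher, and of 5 eosinophil markers 1 was higher and 2 lower. The part of these cell types in the values was not tested. From day 13 to day 28 edgeR called none, against 1.1% of all genes, with 3 of 78 at an unadjusted p below 0.05 and none by DESeq2. From day 45 to day 60, 19 of 78 were called, 3 higher and 16 lower, against 7.27% of all genes (4.39% higher and 2.88% lower), and 4 were called without animal 18. FKBP4 (-0.30 ± 0.08) and STIP1 (-0.25 ± 0.08) were among the calls lost without that animal.

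Some cell type markers were also called between days 28 and 45, where 13.1% of all genes were called higher and 14% lower. Of 8 platelet markers 5 were lower at day 45, and their summed median level went from 1796 to 1277 CPM. Of 5 eosinophil markers 3 were higher (479 to 554 CPM), and of 8 erythroid markers 1, HBB, was higher, with a summed median of 2120 CPM at day 28 and 4097 CPM at day 45. Of the other lists 2 of 9 neutrophil and 2 of 7 natural killer cell markers were called higher, and 1 of 8 B cell markers lower. None of 10 T cell and none of 8 monocyte markers were called. The part of cell composition in the chaperone levels was not tested.

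BRD and healthy steers overlapped for every one of the 10 genes at every day. At day 0 the log2 difference, BRD minus healthy, ran from -0.08 ± 0.06 for TRAP1 to 0.31 ± 0.12 for HSP90AB1, whose levels were 539 to 2221 CPM with a median of 817 CPM in BRD steers and 627 to 1033 CPM with a median of 791 CPM in healthy steers. Both of the highest values, 1965 and 2221 CPM, were of animals 18 and 54. Within the 4 pens that held both labels the HSP90AB1 difference at day 0 was -0.02. Those pens held 8 healthy and 7 BRD steers and no COMBO steer, so animals 18 and 54 were not among them. The value is thus for a smaller set of cattle than the 0.31 above. At day 13 the differences ran from -0.02 to 0.27, the highest being that of HSPH1, which was -0.04 without animal 40, as DNAJB1 went from 0.18 to -0.0034. They ran at day 28 from -0.08 to 0.17 and at day 60 from -0.29 to 0.03.

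At day 45 the difference was 0.49 ± 0.25 for HSPH1 and 0.38 ± 0.19 for DNAJB1, and -0.14 ± 0.06 for TRAP1. HSPH1 lay between 75.46 and 843 CPM with a median of 105.1 CPM in BRD steers, and between 49.8 and 332 CPM with a median of 97.97 CPM in healthy steers. Without animal 18 the HSPH1 difference was -0.10 and the DNAJB1 difference was -0.08. The change from day 0 to day 13 differed between the labels by -0.19 to 0.06 over the 10 genes, with standard errors of 0.07 to 0.31. Among the 78 related genes edgeR called none between labels at any day, with 6, 1, 6, 7 and 0 at an unadjusted p below 0.05 at the successive samplings. Of all genes tested 0.0158% were called at day 0, 0.00528% at day 28 and as many at day 60, and 0% at days 13 and 45. DESeq2 called 1 of the related genes, FKBP5, at day 0 and none at the other days. Within the 4 pens with both labels, which held no COMBO steer, edgeR called 8.22% of all genes and 3 related genes at day 0. At day 13 it called 2 related genes in those pens.

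At day 0, COMBO steers had the higher mean levels of the cytosolic genes HSPH1, HSP90AB1 and HSP90AA1. HSPH1 lay between 58.98 and 188 CPM with a median of 84.9 CPM in 7 COMBO steers, between 42.5 and 108.5 CPM with a median of 63.5 CPM in 11 INR steers, and between 42.5 and 107.4 CPM with a median of 52.5 CPM in 8 AAC steers. The 3 ranges overlapped. For the other genes the higher means came from animals 18 and 54, with 1965 and 2221 CPM of HSP90AB1 and 1144 and 1199 CPM of HSP90AA1, and the medians of COMBO and INR steers were close, at 817 and 810.3 CPM for HSP90AB1 and 632 and 612 CPM for HSP90AA1. The log2 difference of COMBO from INR was 0.64 for HSPH1, 0.51 for HSP90AB1, 0.40 for HSP90AA1 and -0.10 for TRAP1, while AAC differed from INR by -0.14 to 0.05 over the 10 genes. All COMBO steers, in pens 5 and 6, were drenched before shipment and at enrolment. HSP90AB1 in the 4 of pen 5 was 627 to 895 CPM, which overlapped the INR range of 673 to 999 CPM, and both high animals came from pen 6. Over days 13 to 60 the change from day 0 in COMBO steers differed from that in INR steers by -0.52 for HSPH1, -0.43 for HSP90AB1 and -0.33 for HSP90AA1. The COMBO median of HSP90AB1 was 817 CPM at day 0 and 813 CPM for the mean of the later days, and the 5 COMBO steers other than animals 18 and 54 were at 895 CPM or below at day 0. Among the related genes edgeR called none at day 0 and none for the change, with 12 and 10 at an unadjusted p below 0.05 and none by DESeq2. Of all genes tested 0.106% were called at day 0 and 0.0106% for the change.

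The AAC and INR groups, which came from different pens, were compared at day 13 within each label. In healthy steers HSPA9 was 212, 232.5 and 256 CPM in the 3 AAC animals and 177, 202, 163 and 146 CPM in the 4 INR animals. HSPD1 was 124.3, 155.5 and 153 CPM in AAC and 101.7, 123.6, 98.6 and 91.4 CPM in INR animals. Neither gene's groups overlapped, though for HSPD1 the lowest AAC and the highest INR animal almost met. Nor did those of the cytosolic genes HSPA4 and HSPA8 overlap, while those of the remaining genes did. HSPA4 was 145.8 to 158.1 CPM in AAC and 103.8 to 135.9 CPM in INR animals. HSPA8 was 985.3 to 1317 CPM in AAC and 730.9 to 955.1 CPM in INR animals. The log2 difference, AAC minus INR, was 0.47 ± 0.13 for HSPD1, 0.45 ± 0.16 for HSPE1 and 0.43 ± 0.12 for HSPA9, and the other 7 genes lay between 0.08 and 0.43. At day 0 the means of healthy AAC and INR steers were 231 and 212 CPM for HSPA9 and 128.8 and 115.2 CPM for HSPD1. Compared as changes from day 0, with the animal as a block, the differences were 0.33 for HSPD1, 0.41 for HSPE1, 0.31 for HSPA9 and 0.01 for HSPH1.

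In BRD steers the same contrast ran from -0.89 ± 0.45 for HSPH1 to -0.05 ± 0.10 for HSPA9. HSPH1 was 51.8 to 71.8 CPM in 4 AAC animals and 41.2 to 418 CPM in 7 INR animals, and the highest value was that of animal 40. Without animal 40 the difference was 0.05 for HSPH1 and 0.03 for DNAJB1. TRAP1 was 44.3 to 47.8 CPM in AAC and 48.96 to 57.7 CPM in INR animals with no overlap, a log2 difference of -0.23 ± 0.10. When each steer's change from day 0 was compared instead, with the animal as a block, the TRAP1 difference was -0.01 and 6 of the 10 genes were above 0. Whether the supplement difference itself differed between healthy and BRD steers was not tested. Among the related genes edgeR called none in healthy steers, where 0.312% of all genes were called (29 at an unadjusted p below 0.05, 10 by DESeq2). Without animal 10 alone it called 14 related genes and 3.39% of all genes, and without animal 34 it called 0% of all genes. In BRD steers, where 0.942% of all genes were called, it called 1, SERPINH1, a collagen chaperone (1.21 ± 0.34, edgeR FDR = 0.0998), whose log2 difference was 0.02 without animal 21.

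**Figure D5:**
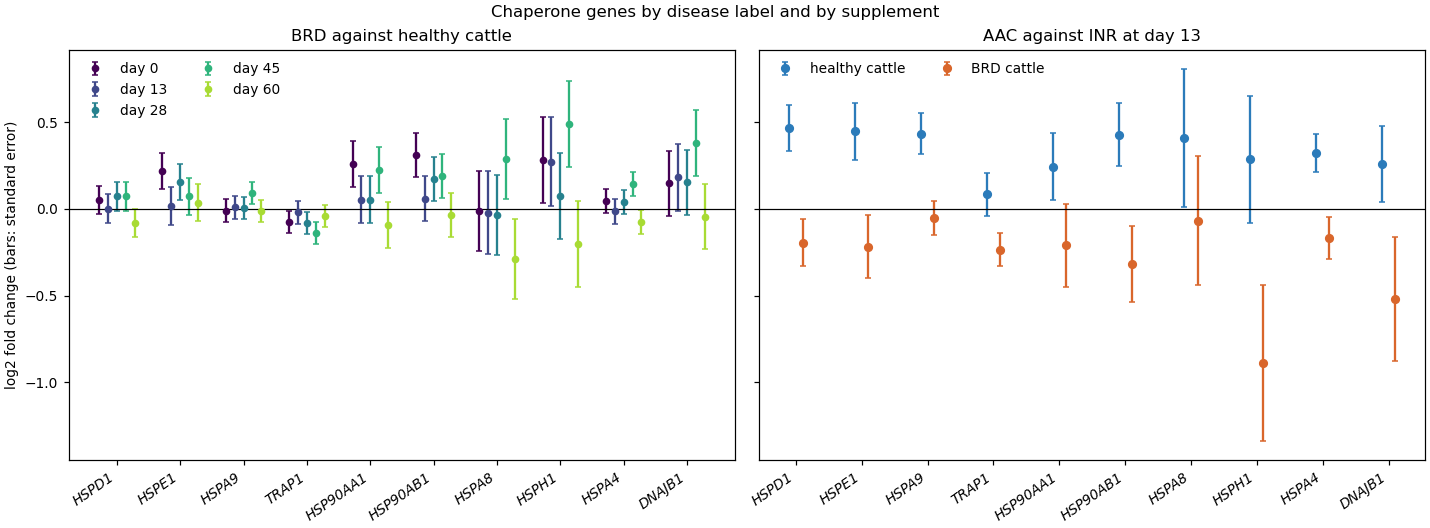
Log2 difference of each chaperone gene with its standard error for BRD against healthy steers by day, and for AAC against INR steers at day 13 in healthy and in BRD cattle. The 10 values for healthy cattle at day 13 lie between 0.08 and 0.47 and those for BRD cattle between -0.89 and -0.05.

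Across all libraries, which share animals and days, the levels of the chaperones correlated to different degrees. The closest pairs were HSP90AA1 with HSPH1 (r = 0.933) and HSP90AB1 with HSPA4 (r = 0.908). DNAJB1 was closest to HSP90AA1 (r = 0.9), and HSPD1 to HSPA4 (r = 0.874) rather than to its neighbour HSPE1. HSPA9 was closest to HSPD1 (r = 0.684), HSPA8 to DNAJB1 (r = 0.652) and TRAP1 to HSPD1 (r = 0.339). Among the other 18927 genes, the 5 whose log2 levels were most like the mean standardised log2 level of the 10 were PTGES3 (r = 0.939), CCT4 (r = 0.936), AHSA1 (r = 0.934), STIP1 (r = 0.932) and FKBP4 (r = 0.926). Of the 20 most alike, 12 were on the lists of related genes and 4 were pseudogenes in the RefSeq annotation.

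The mitochondrial genes varied more between animals and less between days than HSPH1 and DNAJB1. Differences between animals made up 58.1% of the variance in TRAP1, 50.2% in HSPD1, 45.7% in HSPE1 and 40.4% in HSPA9, and differences between days made up 11.5%, 14.1%, 8.17% and 11.1%. For HSPH1 the shares were 29.1% between animals and 27.8% between days, and for DNAJB1 they were 36.3% and 27.4%. HSPA8 had the lowest share between animals, at 24%, with 16.6% between days. HSP90AB1 had the same share between animals as HSPA9, at 40.4%, with 21.4% between days. The shares were 33.8% and 26.2% for HSP90AA1 and 35% and 27.2% for HSPA4. These are raw shares, each taken alone. Noise alone would give the 26 animals a larger share than the 5 days, so animal shares are not compared with day shares.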

How the data were processed

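Whole blood RNA from 26 steers gave 129 libraries. The gene counts analysed here were deposited by the authors as whole numbers per gene, made with FastQC 0.11.9, Trimmomatic 0.39, HISAT2 2.1.1, StringTie 2.2.0 and edgeR 3.36.0 per the labels, on the ARS-UCD1.3 cattle genome. StringTie derives such counts from coverage. Genes were named as in the table, and RefSeq (ARS-UCD2.0) served for gene type and neighbours only. No sequence was used.

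Counts were scaled by TMM and tested with edgeR 4.0.16 quasi-likelihood F-tests (R 4.3.3, common dispersion, Benjamini-Hochberg FDR below 0.10), and DESeq2 1.42.0 was an alternative. Day steps were fitted with the animal as a block, label contrasts and supplement contrasts at day 0 over all 129 libraries, and AAC against INR within healthy (18269 genes) or BRD (18477 genes) cattle. The label, day 0 supplement and AAC against INR fits had no term for the animal. They treated repeated libraries of a steer as independent in the pooled spread behind their standard errors and FDRs. Libraries of the same animal deviated together (median correlation 0.393, lowest animal 0.281, against -0.0111 between animals), and none were identical. Correlations used log2(CPM + 0.5). Standard errors are those of the fits. Related genes were named as up to 2 per list and comparison, and the scripts were checked on simulated data. The 10 genes and all lists were chosen with earlier results of these data known.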

Additional observations from a re-analysis of the deposited data

Results flagged for a closer look

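Animal 18 stood apart from the other COMBO steers in its mean level over days 13 to 60 for 6 genes, as judged by the gap to its nearest neighbour within 7 animals. Its mean was 157.8 CPM for HSPD1 (group median 125.9), 1199 CPM for HSP90AA1 (median 614.9), 1719 CPM for HSPA8 (median 1123), 273.3 CPM for HSPH1 (median 80.81), 185.0 CPM for HSPA4 (median 141.1) and 182.9 CPM for DNAJB1 (median 75.91). These means take in its high day 45 library. Its HSPH1 level was 842.9 CPM at day 45, against 80.33, 66.79 and 103.1 CPM at days 13, 28 and 60. Its DNAJB1 level was 519.9 CPM at day 45, against 63.75, 63.52 and 84.3 CPM at those days. TRAP1 in animal 48 at day 0 stood apart from the other 7 AAC steers, at 65.47 CPM against a group median of 47.18 CPM. In all, 40 groups were examined and 7 held such a value. Chance alone gives about 1 in 20, but the genes were chosen with their levels known and the 6 values of animal 18 share its libraries, so nothing is read from that comparison.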

How the results depend on the processing

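Of the 10 chaperones' log2 fold changes under all alternatives, 3547 moved by less than the spread between animals and 13 by more. All 13 lay in the disease label or AAC against INR comparisons, and none that was called turned its sign. Many alternatives left out 1 animal, which can seldom move a value that far, so these counts are not read as stability. In the label and AAC against INR comparisons none of the 10 was called, and signs did turn there. The HSPH1 difference between labels at day 45 was 0.49, and -0.10 without animal 18. Percentages below are shares of all genes tested, beside the values of the report, and the cause of each change was not tested. Without the animal as a block, which pairs a steer's libraries, 21.1% were called at day 13, 0.164% at day 28, 13.7% at day 45 and 1.66% at day 60 (4 related genes), and 0% for the supplement change. With the block, through the change from day 0, AAC against INR gave 0.00547% in healthy and 0.00541% in BRD cattle (0 related genes). DESeq2 called 2.92% at day 28, 0.1% for the label difference in change, 0.121% for the supplement change, 0.518%, 0.19%, 0.211%, 0.164% and 0.158% between labels by day (1 related gene at day 0), 0.507% among supplements at day 0, 2.33% for AAC against INR in healthy cattle (10 related genes) and 3 related genes in BRD cattle. Without animals 18, 34 and 40, chosen after seeing the data, 3.75% (5 related genes) were called at day 60, 0.00528% for the label difference in change and 0% for the supplement change. In pens with both labels (no COMBO steers), label calls by day were 8.22% (3 related genes), 0.597% (2 related genes), 0.338%, 0.037% and 0.0739%. From the libraries of one day alone, label calls at days 0, 28 and 60 and supplement calls at day 0 were 0%. A trended dispersion, no filter and RLE factors each gave 0% for the supplement change. For AAC against INR in BRD cattle they gave 0, 0 and 2 related genes, and the trended dispersion called 0.547% of all genes. With no filter, 0.0482% were called among supplements at day 0 and 0.142% for AAC against INR in healthy cattle.

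Leaving out 1 animal at a time gave 27.2% to 36.4% at day 13, 0.771% to 1.92% at day 28, 22.6% to 29.6% at day 45 and 4.83% to 8.81% at day 60, with 17 to 35, 0 to 0, 34 to 45 and 4 to 21 related genes. The supplement change ran from 0% to 1.17% and supplements at day 0 from 0.0106% to 3.37% (0 to 5 related genes), both highest without animal 16. Label calls by day ran from 0% to 1.6% (without animal 16, 0 to 3 related genes), 0.0634%, 0.0634%, 0.00528% and 0.0106%. AAC against INR ran from 0% (without animal 34) to 3.39% (without animal 10; 0 to 14 related genes) in healthy and from 0.0487% (without animal 21) to 1.26% (0 to 2 related genes) in BRD cattle. The lowest count of the 10 genes in a library was 1156, so depth did not limit them.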
